A study of Mus musculus with 14 samples.

Results

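Tubulin isotypes were followed across hippocampus and heart of mouse pups and adults. The 10 genes were Tubb2a, Tubb2b, Tubb3, Tubb4a, Tubb5, Tubb6, Tuba1a, Tuba1b, Tuba4a and Tuba8, and every probe set that the platform annotation assigned to only 1 of them was taken. This gave 15 probe sets for 9 of the 10 genes, out of 34945 such probe sets for 18193 genes on the whole array. Tuba1b had 0 probe sets of its own, since the probe set listed for it also names the gene model Gm5620, and no value is given for it. Tubb2b and Tuba1a each had 1 further probe set that is shared with other genes and was not used.

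RNA from 4 groups of C57BL/6 mice was measured on 14 Affymetrix mouse arrays with 1 colour, to ask how expression differs between hippocampus and an organ outside the brain and between adults and pups. Adult hippocampus and adult heart came from males aged 10 weeks, and pup hippocampus and pup heart from untreated animals aged 7 days whose sex was not given. For adults there were 2 biological replicates per tissue, measured on 2 technical arrays apiece that were averaged, and for pups 3 biological replicates per tissue on 1 array apiece, so that 10 biological samples were compared. Adult RNA was bought from a company, while pup mRNA was extracted by the laboratory, so age and RNA source cannot be told apart. Whether the adult replicates were separate animals is not in the labels, and the study's methods name a single male mouse, so p-values may in part measure technical spread. No transgene or deletion was involved.

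Microtubules are hollow polymers of α- and β-tubulin dimers. Mammals hold several genes for each subunit, whose proteins differ mostly in the C-terminal tail, and the mixture of isotypes changes as neurons extend axons and dendrites. Tubb2b, Tubb3 and Tuba1a are known for high expression in newly formed neurons, and mutations of each disturb brain development in humans. Heart muscle cells hold a dense microtubule network around the nucleus and between the myofibrils, which bears on the stiffness of the cell.

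The sequences just upstream of 5 of these genes are shown, each with 1 or more probe sets called between tissues in adults and in pups. Tubb2a, Tubb3, Tubb5 and Tuba1a were called higher in hippocampus than in heart, and Tuba8 lower. In adults the second probe sets of Tubb2a, Tubb5 and Tuba8 were not called. Those of Tubb5 (−0.39) and Tuba8 (0.12) had the opposite sign to the called one. The RefSeq promoter table of build GRCm38.p6 matched 8 of the 10 genes, and Tubb2b and Tubb6 were not matched. Each line gives the 250 bases before the annotated start of transcription, 5′ to 3′ on the gene's own strand. Capitals mark matches on either strand to 4 short motifs. The TATA box was searched as TATAA. The CCAAT box was searched by the letters of its name. The GC box was searched as GGGCGG. The cyclic AMP response element was searched as TGACGTCA.
Tubb2a, chr13:34078009-34078258, strand -: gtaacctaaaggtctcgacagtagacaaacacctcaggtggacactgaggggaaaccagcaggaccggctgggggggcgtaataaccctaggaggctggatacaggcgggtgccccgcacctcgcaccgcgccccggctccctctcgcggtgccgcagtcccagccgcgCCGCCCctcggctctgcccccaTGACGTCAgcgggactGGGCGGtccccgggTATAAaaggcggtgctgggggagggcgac
Tubb3, chr8:123411303-123411552, strand +: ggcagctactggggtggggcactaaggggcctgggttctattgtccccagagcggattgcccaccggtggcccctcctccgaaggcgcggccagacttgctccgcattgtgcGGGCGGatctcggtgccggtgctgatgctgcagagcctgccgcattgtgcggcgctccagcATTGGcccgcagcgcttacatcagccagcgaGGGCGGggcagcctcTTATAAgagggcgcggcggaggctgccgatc
Tubb5, chr17:35838302-35838551, strand -: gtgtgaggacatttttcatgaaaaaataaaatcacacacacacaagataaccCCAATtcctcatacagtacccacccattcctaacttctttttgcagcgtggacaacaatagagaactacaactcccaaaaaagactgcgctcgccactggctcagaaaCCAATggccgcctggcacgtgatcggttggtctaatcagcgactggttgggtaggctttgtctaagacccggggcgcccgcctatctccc
Tuba1a, chr15:98953502-98953751, strand -: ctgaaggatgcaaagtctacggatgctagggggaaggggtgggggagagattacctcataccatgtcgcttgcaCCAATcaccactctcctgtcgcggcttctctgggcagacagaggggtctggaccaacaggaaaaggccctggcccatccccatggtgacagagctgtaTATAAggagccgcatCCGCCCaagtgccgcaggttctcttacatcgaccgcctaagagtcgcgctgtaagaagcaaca
Tuba8, chr6:121210484-121210733, strand +: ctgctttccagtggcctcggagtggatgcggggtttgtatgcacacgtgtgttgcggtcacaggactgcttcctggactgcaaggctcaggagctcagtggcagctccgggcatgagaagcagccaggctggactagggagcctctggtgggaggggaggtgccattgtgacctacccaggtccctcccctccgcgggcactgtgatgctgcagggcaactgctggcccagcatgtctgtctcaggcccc

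Tubb2a and Tubb3 each held TATAA, whose first matched base lay 29 bases before the start in Tubb2a and 31 and 30 bases before it in Tubb3, where the matches on opposite strands overlap. Tuba1a held a TATAA 78 bases before the start. TATAA was present in 3 of the 8 windows searched and in 23.4% of the 27025 windows of the same length in the table. CCAAT was found in Tubb3, Tubb5 and Tuba1a, 3 of 8 windows, against 34.2% of all windows. GGGCGG was found in 5 of 8 windows, against 32.7% of all windows, and TGACGTCA in Tubb2a alone, against 1.56% of all windows. The windows of Tuba8 and Tubb4a held none of the 4 motifs. These matches describe letters and were not tested against the expression values. In the same annotation Tubb2a and Tubb2b are neighbours with only 1 non-coding gene model between them, and Tuba1a and Tuba1b are direct neighbours.

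Array medians lay between 8.73 and 8.98 in all groups, and all levels are log2 values. The spiked hybridization controls of the arrays averaged 10.80 in adult hippocampus against 13.15 in pup hippocampus, and 10.73 in adult heart against 13.16 in pup heart. By sample they were 10.61 to 11 in adults and 12.77 to 13.44 in pups, so age and this difference between arrays cannot be told apart. The tissue labels were checked against marker genes, each by its brightest probe set. Of 10 cardiomyocyte markers, 8 were lower in hippocampus than in heart in adults and 10 in pups, and of 10 neuron markers 5 were higher in hippocampus at each age. The mean level of the cardiomyocyte markers was 8.52 to 8.57 in adult hippocampus, 8.98 to 11 in pup hippocampus, 13.59 to 13.99 in adult heart and 14.57 to 15.04 in pup heart. Actc1 and Myh6 were lower in adult than in pup hippocampus (−4.11 and −3.15), and every pup sample lay above both adult samples, which measured 8.3 and 8.51 for Actc1. Pup hippocampus replicate 1 stood apart in these markers, with Actc1 at 14.76 against 12.49 and 10.31 in the other pup hippocampus samples. Without it, the calls of the tubulin probe sets stood except those of Tubb4a with age in hippocampus and of Tubb2a 1427347_s_at for the difference between tissues, whose values are given with those genes.

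Differences were tested with limma over all 45037 probe sets that are not array controls, two-sided, with Benjamini-Hochberg adjustment and a threshold of 0.05. A probe set past the threshold is said to have risen, fallen or been called. The level of one probe set was never set against that of another, since probes differ in how well they hybridize.

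**Figure D1:**
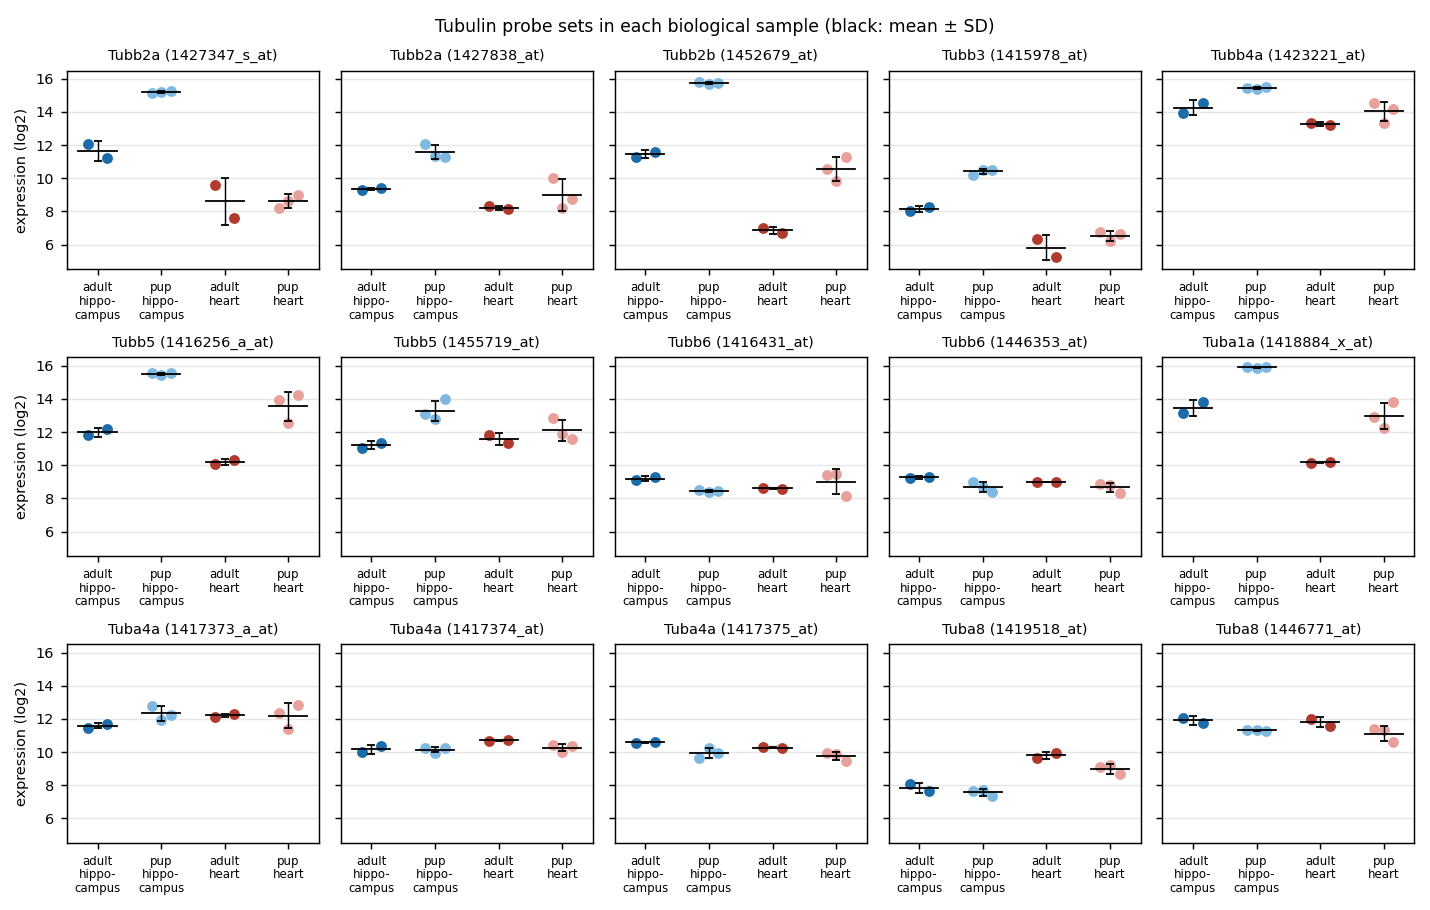
Levels (log2, vertical axis) of the 15 tubulin probe sets in each biological sample, by group (horizontal axis). Points are samples (2 adult and 3 pup for each tissue, technical arrays averaged) and black bars are means ± SD. Pup hippocampus has the highest mean for each probe set of Tubb2a, Tubb2b, Tubb3, Tubb4a, Tubb5 and Tuba1a, whereas no probe set of Tubb6, Tuba4a or Tuba8 was called with age.

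Tubb2b, a β-tubulin of migrating and growing neurons, showed the largest age difference among the 15 probe sets in both tissues. Its probe set 1452679_at measured 11.28 and 11.61 in adult hippocampus, against 15.80, 15.71 and 15.73 in pup hippocampus. In heart it measured 6.99 and 6.72 in adults, against 10.59, 9.86 and 11.31 in pups. Every adult sample lay below every pup sample of its tissue, and pup heart came close to adult hippocampus. Tubb2b was thus 19.7-fold lower in adult hippocampus (log2 difference −4.30, SE 0.37, adjusted p = 0.000471, limma) and 13.3-fold lower in adult heart (−3.73, SE 0.37, adjusted p = 0.000548, limma). The age difference in hippocampus minus that in heart was −0.57 (95% interval −1.75 to 0.61, not called). The pup hippocampus values lay within 0.29 of the highest value of their arrays, and whether the scale caps them was not tested. The adult heart values lay below their array medians (8.97 to 8.98), and whether they lay above background was not tested. The fold with age in heart and the adult fold between tissues rest on them. Tubb2b was also higher in hippocampus than in heart, by 24.1-fold in adults (adjusted p = 0.000172, limma) and by 35.8-fold in pups (adjusted p = 8.31e-06, limma). No removal of a single sample ended these 4 calls.

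Tubb2a, a β-tubulin abundant in brain and nearly identical to Tubb2b, has 2 probe sets. The first, 1427347_s_at, carries a suffix that Affymetrix gives to probe sets that can match several transcripts, so related tubulins may share its signal. It measured 12.07 and 11.20 in adult hippocampus, against 15.15, 15.21 and 15.28 in pup hippocampus. In heart it measured 9.62 and 7.62 in adults, against 8.23, 8.65 and 9.02 in pups, and these groups overlapped. The technical arrays of adult heart replicate 2 differed by 2.07 (8.65 and 6.58). The heart samples lay on both sides of the array medians (8.97 to 8.98 in adult heart, 8.77 to 8.85 in pup heart). Whether they lay above background was not tested, and the age difference in heart and the folds between tissues rest on them. The age difference was −3.58 in hippocampus (SE 0.52, 12-fold lower, adjusted p = 0.00318, limma) and −0.02 in heart (95% interval −1.18 to 1.15).

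The second Tubb2a probe set, 1427838_at, measured 9.29 and 9.39 in adult hippocampus, against 12.06, 11.37 and 11.29 in pup hippocampus. It measured 8.31 and 8.15 in adult heart, against 10.03, 8.18 and 8.76 in pup heart. Both probe sets were therefore lower in adult than in pup hippocampus, and the second by 4.71-fold (−2.23, SE 0.48, adjusted p = 0.015, limma). This call was lost without adult hippocampus replicate 1 (−2.18, adjusted p = 0.1) or replicate 2 (−2.29, adjusted p = 0.081). In heart the second probe set differed by −0.76 with age (95% interval −1.83 to 0.30) and was not called. Between tissues, 1427347_s_at was higher in hippocampus by 8.09-fold in adults (3.02, adjusted p = 0.00534, limma) and by 95.6-fold in pups (adjusted p = 1.43e-05, limma). The adult value depended on the adult heart samples, at 4.01 without replicate 1 (adjusted p = 0.00304) and 2.02 without replicate 2 (adjusted p = 0.0267). For 1427838_at the corresponding differences were 2.16-fold in adults, which was not called (adjusted p = 0.162, limma), and 5.99-fold in pups (adjusted p = 0.00285, limma). Leaving out pup heart replicate 1 brought the adult tissue difference of 1427838_at past the threshold (1.11, adjusted p = 0.0447). The adult heart values of 1427838_at lay below their array medians (8.97 to 8.98) and were not compared with background.

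Tubb3, the β-tubulin used as a marker of neurons, measured 8.0 and 8.27 in adult hippocampus, against 10.23, 10.51 and 10.51 in pup hippocampus. In heart it measured 6.35 and 5.28 in adults, against 6.79, 6.20 and 6.64 in pups. The hippocampal groups were far apart, while adult and pup heart overlapped. Tubb3 fell 4.85-fold with age in hippocampus (−2.28, SE 0.34, adjusted p = 0.00336, limma). In heart it differed by −0.73 (95% interval −1.48 to 0.02, adjusted p = 0.158, limma). The test of unequal age differences in the tissues gave −1.55 (SE 0.48, adjusted p = 0.104, limma) and did not pass. Tubb3 was 4.99-fold higher in hippocampus than in heart in adults (adjusted p = 0.00237, limma) and 14.6-fold higher in pups (adjusted p = 2.44e-05, limma). Its heart values all lay below the array medians of their group (8.97 to 8.98 in adults, 8.77 to 8.85 in pups). The adult hippocampus values also lay below theirs (8.85 to 8.87). A filter for dim probe sets, at a level of 7.72, kept 14 of the 15 tubulin probe sets and left Tubb3 out. Whether the heart signal of Tubb3 lay above background was not tested. The folds between tissues and the lack of an age call in heart rest on that signal. The technical arrays of adult heart replicate 1 differed by 1.34 for this probe set (5.68 and 7.02).

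Tubb5 encodes a β-tubulin that is made in most tissues and abundantly in dividing cells. Its probe set 1416256_a_at measured 11.80 and 12.17 in adult hippocampus, against 15.53, 15.43 and 15.57 in pup hippocampus. In heart it measured 10.08 and 10.30 in adults, against 13.91, 12.54 and 14.21 in pups. Adults lay below pups in both tissues without overlap. Tubb5 fell 11.5-fold in hippocampus (−3.52, SE 0.43, adjusted p = 0.00154, limma) and 10.3-fold in heart (−3.36, SE 0.43, adjusted p = 0.00131, limma), and both calls remained without any single sample. This probe set was higher in hippocampus than in heart by 3.47-fold in adults (adjusted p = 0.0234, limma) and by 3.87-fold in pups (adjusted p = 0.00783, limma). The adult difference was lost without adult hippocampus replicate 1 (1.98, adjusted p = 0.0684) or replicate 2 (1.61, adjusted p = 0.131) and without adult heart replicate 1 (1.69, adjusted p = 0.116) or replicate 2 (1.90, adjusted p = 0.0824).

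The other Tubb5 probe set, 1455719_at, showed part of this pattern. It measured 11.02 and 11.36 in adult hippocampus, against 13.06, 12.78 and 13.98 in pup hippocampus, and 11.82 and 11.34 in adult heart, against 12.83, 11.90 and 11.57 in pup heart. The hippocampal groups were apart and the heart groups overlapped. It fell 4.24-fold in hippocampus (−2.09, SE 0.44, adjusted p = 0.0148, limma), a call lost without adult hippocampus replicate 1 (−1.91, adjusted p = 0.112) or replicate 2 (−2.26, adjusted p = 0.0653). In heart it differed by −0.52 with age (95% interval −1.51 to 0.47). The 2 probe sets thus gave different accounts of Tubb5 in heart, at 10.3-fold and 1.43-fold lower in adults. The hippocampus minus heart difference of 1455719_at in pups, 1.17, was not called (adjusted p = 0.0817, limma), and passed without pup heart replicate 1 (1.54, adjusted p = 0.0306).

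Tubb4a encodes a β-tubulin of neurons and of myelin-forming oligodendrocytes, and human mutations of it cause a disease of white matter. It measured 13.93 and 14.57 in adult hippocampus, against 15.43, 15.40 and 15.49 in pup hippocampus, and 13.36 and 13.20 in adult heart, against 14.52, 13.36 and 14.21 in pup heart. The adult hippocampal samples lay below the pup samples, by 2.28-fold on average (−1.19, SE 0.35, adjusted p = 0.0473, limma). This was the weakest of the age calls. It was lost without pup hippocampus replicate 1 (−1.20, adjusted p = 0.0939), 2 (−1.21, adjusted p = 0.0985) or 3 (−1.17, adjusted p = 0.111), without adult hippocampus replicate 1 (−0.87, adjusted p = 0.292) or 2 (−1.51, adjusted p = 0.087), and without adult heart replicate 1 or 2 (−1.19, adjusted p = 0.0708 each).

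In heart Tubb4a differed by −0.75 with age (adjusted p = 0.16, limma), and by −1.09 without pup heart replicate 2 (adjusted p = 0.024). Between tissues it was 2.65-fold higher in hippocampus in pups (adjusted p = 0.014, limma) and differed by 0.97 in adults (adjusted p = 0.0995, limma), which passed without pup heart replicate 2 (adjusted p = 0.0352). Tubb4a is listed with oligodendrocyte biology. The mean level of 7 oligodendrocyte markers was 11.21 to 11.31 in adult hippocampus against 10.19 to 10.73 in pup hippocampus. By brightest probe set, 2 of the 7 were higher in adults and 0 lower. Mbp and Mobp are not among those 2, but 6 of 8 Mbp and 2 of 5 Mobp probe sets were called higher, and 0 lower. No probe set of Mog, Mag or Cldn11 was called.

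Tubb6, a β-tubulin found mainly outside the nervous system, behaved otherwise. Its probe set 1416431_at measured 9.08 and 9.31 in adult hippocampus, against 8.52, 8.40 and 8.45 in pup hippocampus, and 8.63 and 8.56 in adult heart, against 9.43, 9.44 and 8.17 in pup heart. Its other probe set, 1446353_at, measured 9.21 and 9.31 in adult hippocampus, against 8.96, 8.69 and 8.38 in pup hippocampus, and 8.97 and 9.0 in adult heart, against 8.84, 8.82 and 8.33 in pup heart. Both probe sets were above the pup samples in both adult hippocampal samples, by 0.74 (95% interval −0.08 to 1.56) and 0.58 (−0.01 to 1.17), but neither was called (adjusted p = 0.205 and 0.167, limma). In no comparison was a Tubb6 probe set called. Pup heart replicate 3 held the low value of 8.17. Without it, 1416431_at passed as higher in adult hippocampus (0.74, adjusted p = 0.0332), lower in adult heart (−0.84, adjusted p = 0.0308), lower in hippocampus than in heart of pups (−0.98, adjusted p = 0.01) and different in its age change between tissues (1.58, adjusted p = 0.0257).

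Among the α-tubulins, Tuba1a is the main form of developing neurons. Its only probe set, 1418884_x_at, carries a suffix for possible matches to related transcripts, and the paralog Tuba1b has no probe set of its own to set beside it. It measured 13.13 and 13.79 in adult hippocampus, against 15.92, 15.89 and 15.95 in pup hippocampus. In heart it measured 10.14 and 10.19 in adults, against 12.89, 12.23 and 13.79 in pups. Pup heart thus reached the range of adult hippocampus. The pup hippocampus values lay within 0.11 of the highest value of their arrays, with an SD of 0.03 against 0.78 in pup heart, and whether the scale caps them, and with them the hippocampal folds, was not tested. The signal fell 5.50-fold in hippocampus (−2.46, SE 0.41, adjusted p = 0.00533, limma) and 6.98-fold in heart (−2.80, SE 0.41, adjusted p = 0.00198, limma). The hippocampal call was lost without adult hippocampus replicate 1 (−2.13, adjusted p = 0.0637), and the heart call remained without any single sample. Between tissues it was 9.81-fold higher in hippocampus in adults (adjusted p = 0.0011, limma) and 7.73-fold higher in pups (adjusted p = 0.000466, limma).

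Tuba4a encodes an α-tubulin that lacks the terminal tyrosine of most α-tubulins as it is made. Its 3 probe sets gave no call in any comparison. The probe set 1417373_a_at measured 11.48 and 11.70 in adult hippocampus, against 12.80, 11.96 and 12.22 in pup hippocampus, and 12.14 and 12.28 in adult heart, against 12.38, 11.39 and 12.82 in pup heart. The probe set 1417374_at lay between 9.95 and 10.72 in all 10 samples, and 1417375_at between 9.47 and 10.60. Their age differences in hippocampus were −0.74 (95% interval −1.65 to 0.18) for 1417373_a_at, 0.03 (−0.52 to 0.58) for 1417374_at and 0.64 (0.05 to 1.22, adjusted p = 0.132, limma) for 1417375_at. These hippocampal intervals do not reach the falls seen in hippocampus for Tubb2b, Tubb5 and Tuba1a. The direction differed between probe sets of the gene.

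Tuba8, an α-tubulin known from heart, skeletal muscle and testis, showed the opposite tissue order. Its probe set 1419518_at measured 8.05 and 7.63 in adult hippocampus, against 9.65 and 9.96 in adult heart. In pups it measured 7.68, 7.71 and 7.32 in hippocampus, against 9.11, 9.20 and 8.66 in heart. No hippocampal sample reached a heart sample at either age. It was 3.90-fold lower in hippocampus in adults (−1.96, SE 0.30, adjusted p = 0.002, limma) and 2.67-fold lower in pups (−1.42, SE 0.24, adjusted p = 0.00367, limma), and both calls remained without any single sample. The hippocampal values all lay below their array medians (8.85 to 8.87 in adults, 8.73 to 8.77 in pups). Whether they lay above background was not tested, and these folds rest on them. The mean over both Tuba8 probe sets was at −0.92 in adults (adjusted p = 0.0364, limma) and −0.61 in pups, where it was not called (adjusted p = 0.0845, limma). With age 1419518_at differed by 0.81 in heart (95% interval 0.20 to 1.42, adjusted p = 0.0637, limma) and by 0.27 in hippocampus (−0.34 to 0.88).

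The other Tuba8 probe set, 1446771_at, showed no such tissue order. It measured 12.08 and 11.73 in adult hippocampus, against 12 and 11.57 in adult heart, and 11.34, 11.33 and 11.25 in pup hippocampus, against 11.41, 11.35 and 10.59 in pup heart. The difference between tissues was 0.12 in adults (95% interval −0.62 to 0.85) and 0.19 in pups (−0.41 to 0.79). Adults were above pups in both tissues, by 0.60 in hippocampus and 0.67 in heart, and neither was called (adjusted p = 0.207 and 0.147, limma). Technical arrays of adult heart differed by 1.57 in replicate 1 and 1.39 in replicate 2 for 1419518_at, and by 1.04 and 1.18 for 1446771_at, and these gaps exceed the difference between the replicates.

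Over the 15 probe sets, 8 fell with age in hippocampus (Tubb2a with both probe sets, Tubb2b, Tubb3, Tubb4a, Tubb5 with both and Tuba1a) and 0 rose by limma. Over all probe sets tested, 6.52% fell and 8.38% rose. At an unadjusted p under 0.05, 1 tubulin probe set was higher in adult hippocampus (Tuba4a 1417375_at) and 8 were lower. The median difference was −1.19 over the 15 probe sets and 0.12 over all probe sets. In heart 3 of the 15 fell (Tubb2b, Tubb5 and Tuba1a) and 0 rose, against 8.32% and 11.7% over all probe sets, and at an unadjusted p under 0.05 both Tuba8 probe sets were higher. The median difference there was −0.42, against 0.11 over all probe sets. With median centring and range scaling of the arrays, the calls over all probe sets in heart were 4280 higher and 4728 lower, against 5262 higher and 3749 lower as deposited, and the same 3 tubulin calls stood.

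**Figure D2:**
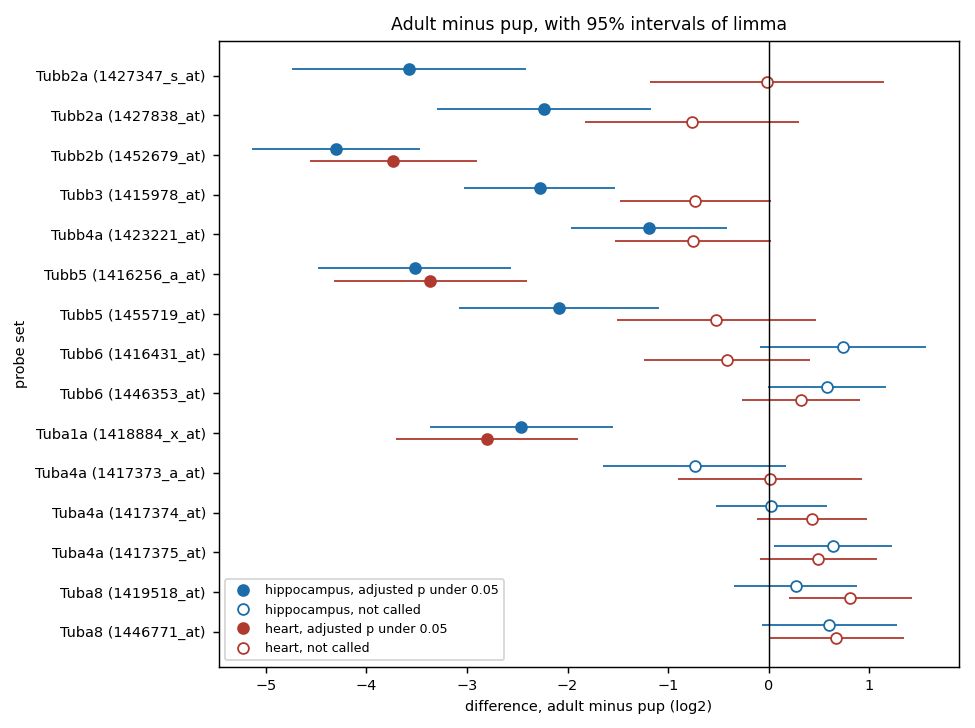
Difference between adult and pup (log2, horizontal axis) for each tubulin probe set (vertical axis) in hippocampus (blue) and heart (red), with 95% intervals. Filled points have an adjusted p under 0.05 (limma). Tubb2b, Tubb5 1416256_a_at and Tuba1a fell in both tissues, whereas Tubb2a, Tubb3, Tubb4a and Tubb5 1455719_at were called in hippocampus alone.

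The difference between the age effects of the tissues was itself called for 1 probe set, Tubb2a 1427347_s_at (−3.56, SE 0.74, adjusted p = 0.0324, limma), whose adult and pup means were 11.63 ± 0.62 (SD, n = 2) and 15.21 ± 0.06 (SD, n = 3) in hippocampus, and 8.62 ± 1.41 (SD, n = 2) and 8.63 ± 0.40 (SD, n = 3) in heart. Over all probe sets 2.37% were called in this direction and 1.18% in the other, where 0 tubulin probe sets were called and 0 had an unadjusted p under 0.05. The second Tubb2a probe set gave −1.47 (95% interval −2.98 to 0.03, adjusted p = 0.251, limma). The call was lost without any 1 of 7 samples: pup hippocampus replicate 1 (adjusted p = 0.0629), 2 (0.0712) or 3 (0.0739), pup heart replicate 1 (0.0606), adult hippocampus replicate 1 (0.081) or 2 (0.126) and adult heart replicate 1 (0.0807), while the difference lay between −4.56 and −2.56. For Tubb3, Tubb4a and Tubb5 1455719_at, called in hippocampus and not in heart, the difference between the tissues did not pass (adjusted p = 0.104, 0.666 and 0.196, limma).

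Between tissues, 5 of the 15 probe sets were higher in hippocampus in adults and 1 lower, against 10.3% and 11.9% of all probe sets. In pups 7 were higher and 1 lower, against 7.52% and 6.77%. The probe sets called higher at both ages were Tubb2a 1427347_s_at, Tubb2b, Tubb3, Tubb5 1416256_a_at and Tuba1a, and Tuba8 1419518_at was lower at both. The median difference was 0.60 in adults and 1.17 in pups, against −0.06 and −0.10 over all probe sets. The adult and the pup comparisons of tissues share no samples, but each shares samples with the comparisons of ages.

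**Figure D3:**
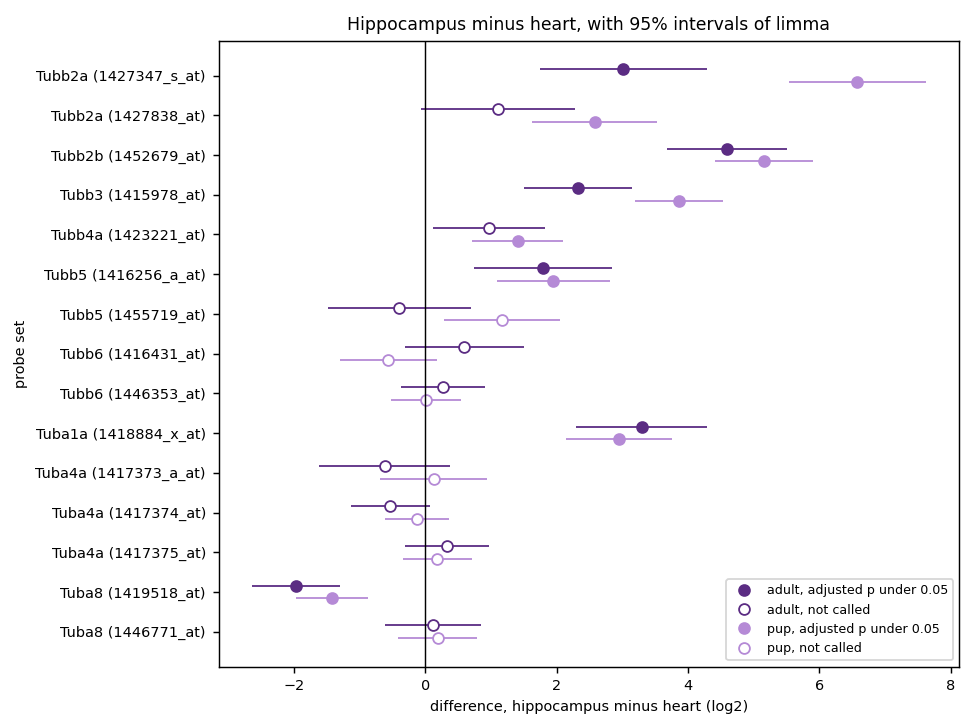
Difference between hippocampus and heart (log2, horizontal axis) for each tubulin probe set (vertical axis) in adults (dark) and pups (light), with 95% intervals. Filled points have an adjusted p under 0.05 (limma). Tubb2b was higher in hippocampus by 4.59 in adults and 5.16 in pups, and Tuba8 1419518_at lower by 1.96 and 1.42.

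Several measurements moved with the age differences. In pup hippocampus 5 probe sets lay near the upper end of the scale, where every array's highest value was between 15.98 and 16: the lowest sample of Tuba1a was 0.11 below its array's maximum, that of Tubb2b 0.29, of Tubb5 1416256_a_at 0.57, of Tubb4a 0.59 and of Tubb2a 1427347_s_at 0.85. Whether these values are compressed was not tested. The mean level of 7 markers of immature neurons was 10.69 to 10.76 in adult hippocampus against 12.49 to 12.71 in pup hippocampus, with 3 of the 7 lower in adults. In the same samples the mean level of 10 neuron markers was 12.48 to 12.83 against 13.20 to 13.23 (3 lower, 1 higher), that of 7 fibroblast markers 10.05 to 10.26 against 10.84 to 11.12 (3 lower) and that of 5 markers of proliferating cells 7.37 to 7.48 against 8.50 to 8.62 (1 lower). These counts take each gene's brightest probe set. The immature neuron markers called lower in hippocampus were Sox4, Neurod1 and Cd24a, and the median over the 7 was −0.16, against 0.12 over all probe sets. The 4 not called (Dcx, Sox11, Igfbpl1 and Dpysl3) were at 0.47, 1.03, −0.16 and 0.36 by brightest probe set. Each had 1 other probe set called lower and 0 higher, out of 4 for Dcx, 6 for Sox11, 2 for Igfbpl1 and 3 for Dpysl3. Of 8 Sox4 probe sets 4 were called lower and 1 higher. Probe sets of 1 gene also differed in other lists, with 2 of 3 called lower for Top2a, and 1 lower and 1 higher of 3 for Pdgfra. Pdgfra is among the 3 fibroblast markers counted lower in hippocampus, and which cells carried it there was not tested. The mean level of 5 markers of proliferating cells was 7.77 to 7.82 in adult heart against 9.35 to 10.49 in pup heart, with 3 of the 5 lower. The mean level of 7 fibroblast markers was 10.72 to 10.73 in adult heart against 13.13 to 13.91 in pup heart, with 5 of the 7 lower, and that of 6 endothelial markers was 9.86 to 9.89 against 11.03 to 11.28, with 3 of the 6 lower. Of the 10 cardiomyocyte markers 3 were lower in adult than in pup heart, with the levels given with the marker check. In hippocampus 2 of the 10 (Actc1 and Myh6) were lower in adults, and 0 were higher in either tissue. The part of all these markers in the tubulin differences was not tested, and in bulk tissue fewer cells of a type and less RNA per cell cannot be told apart.

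Other genes of the tubulin pathway were taken from 4 lists, each gene by its brightest probe set. Removal of single samples was run for their age calls after the values had been seen. The lowest hippocampal counts of all 4 lists came without adult hippocampus replicate 1 (0 other tubulins, 1 folding, 0 modification and 2 microtubule-associated genes called), and those of the first 3 lists in heart without adult heart replicate 1 (0, 4 and 0), while 1 gene of the last list was called in heart without adult heart replicate 2. Without pup hippocampus replicate 1, the hippocampal calls were 1 higher for the other tubulins, 5 lower for folding, 2 higher for modification, and 2 higher and 7 lower for the microtubule-associated list. Of 10 other tubulin genes 7 were measured, and 2 rose (over all probe sets 8.38% in hippocampus and 11.7% in heart) and 0 fell with age in each tissue by limma. With 1 sample left out, 0 to 3 rose in hippocampus and 0 to 2 in heart. Tubg2, a γ-tubulin of the complexes that start microtubules, measured 12.69 and 13.10 in adult hippocampus, against 11.04, 11.66 and 11.62 in pup hippocampus, and rose there (1.46, adjusted p = 0.0247, limma) and in heart (1.94, adjusted p = 0.0054, limma). In each tissue 1 of 2 Tubg2 probe sets was called. Tubb4b, a broadly expressed β-tubulin, was called higher in adult hippocampus by its brightest probe set, 1456470_x_at (2.15, adjusted p = 0.0292, limma). Its 6 probe sets disagreed, with 1 called higher and 2 lower in hippocampus and 2 higher and 1 lower in heart, over a range of differences of −3.05 to 2.15 and −2.58 to 1.27. Tuba3b, an α-tubulin known from testis, rose in heart (1.36, adjusted p = 0.0324, limma). Of these calls, Tubg2 in hippocampus was lost without pup hippocampus replicate 1 or 3 or either adult hippocampus replicate (adjusted p up to 0.16), and in heart without adult heart replicate 1 (adjusted p = 0.0615). Tubb4b was lost without pup hippocampus replicate 2 or either adult hippocampus replicate (adjusted p up to 0.187), and Tuba3b without either adult heart replicate (adjusted p up to 0.177).

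Newly made tubulin is folded by the chaperonin CCT, which receives it from prefoldin, and is assembled into dimers by the tubulin cofactors. Of 22 genes of this list, 6 fell and 0 rose with age in hippocampus (over all probe sets 6.52% and 8.38%), and 6 fell and 1 rose in heart (8.32% and 11.7%). With 1 sample left out, 1 to 7 fell in hippocampus and 3 to 7 in heart. Tbcb, the cofactor that binds α-tubulin, measured 11.14 and 11.49 in adult hippocampus, against 13.75, 13.25 and 13.00 in pup hippocampus, and 9.26 and 9.12 in adult heart, against 10.79, 10.86 and 10.93 in pup heart. It fell in hippocampus (−2.02, adjusted p = 0.00221, limma) and in heart (−1.67, adjusted p = 0.0031, limma). Tcp1, a CCT subunit, fell by 1.86 in hippocampus (adjusted p = 0.00369, limma) and by 1.90 in heart (adjusted p = 0.00214, limma). The Tbcb calls and the heart call of Tcp1 stood without any single sample, and the hippocampal call of Tcp1 was lost without adult hippocampus replicate 1 (adjusted p = 0.0502).

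In heart the largest falls of the folding list were those of Vbp1, a prefoldin subunit (−1.95, adjusted p = 0.00707, limma), and Cct2 (−1.94, adjusted p = 0.00462, limma), both lost without adult heart replicate 1 (adjusted p = 0.0709 for Vbp1 and 0.0502 for Cct2). Of 3 Cct2 probe sets 2 were called lower there. Cct4 was called higher in heart by its brightest probe set (2.71, adjusted p = 0.00153, limma), but 3 of its 7 probe sets were called lower there and 1 higher. The medians of the folding list were −0.10 in hippocampus and −0.35 in heart, against 0.12 and 0.11 over all probe sets.

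Of 19 genes for enzymes that modify tubulin 17 were measured. In hippocampus 3 rose and 0 fell, against 8.38% and 6.52% of all probe sets, and in heart 1 rose and 0 fell, against 11.7% and 8.32%. The share that rose in heart was below that over all probe sets. With 1 sample left out, 0 to 3 rose in hippocampus and 0 to 2 in heart. At the largest rises in hippocampus stood Ttll7, an enzyme that adds glutamate chains to β-tubulin, at 10.70 and 10.93 in adults against 8.55, 8.53 and 8.53 in pups (2.28, adjusted p = 0.00709, limma), and Ttll11, of the same enzyme family (1.31, adjusted p = 0.0279, limma). Ttll11 also rose in heart (1.5, adjusted p = 0.0122, limma). Ttll7 was lost without either adult hippocampus replicate (adjusted p up to 0.0583), Ttll11 in hippocampus without any 1 of the 5 hippocampal samples (adjusted p up to 0.15) and in heart without adult heart replicate 1 (adjusted p = 0.109). In each gene only 1 probe set was called, of 2 for Ttll7 and of 4 for Ttll11. The median of the list was 0.38 in hippocampus and −0.05 in heart.

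Among 30 genes for proteins that bind or depolymerize microtubules, 2 rose and 9 fell with age in hippocampus, against 8.38% and 6.52% of all probe sets, and 3 rose and 2 fell in heart, against 11.7% and 8.32%. Only the count that fell in hippocampus was above the share over all probe sets. With 1 sample left out, 2 to 10 fell in hippocampus, 0 to 6 rose in heart and 1 to 3 fell there. Stmn2, a tubulin-binding protein of growing axons, measured 10.08 and 9.86 in adult hippocampus, against 13.42, 12.93 and 13.04 in pup hippocampus, and fell there (−3.16, adjusted p = 0.000651, limma), with both of its probe sets called. Clasp1, which stabilizes growing microtubule ends, fell by 3.07 (adjusted p = 0.0177, limma) in 1 of 4 probe sets. Tppp, a microtubule-binding protein of oligodendrocytes, measured 10.16 and 9.76 in adult hippocampus, against 8.16, 7.87 and 8.52 in pup hippocampus (1.78, adjusted p = 0.00565, limma), and Map1s rose by 1.10 (adjusted p = 0.0141, limma). The Stmn2 call stood without any single sample. Clasp1 and Map1s were lost without either adult hippocampus replicate (adjusted p up to 0.102 and 0.106), and Tppp without replicate 1 (adjusted p = 0.0658).

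In heart the largest fall of this list was that of Stmn1, a tubulin-binding protein of dividing cells, at 11.79 and 11.49 in adults against 14.41, 13.86 and 14.77 in pups (−2.70, adjusted p = 0.00115, limma). Spast, which severs microtubules, fell by 2.25 (adjusted p = 0.00758, limma). For Stmn1 and for Spast, 1 of 2 probe sets was called lower in heart, and the others were at −0.68 and −0.12. Kif2c, a depolymerizing kinesin, and Katna1, a severing subunit, rose (1.47, adjusted p = 0.00844, and 1.30, adjusted p = 0.0284, limma), with 2 of 4 Kif2c probe sets called. The Stmn1 call stood without any single sample. Spast and Kif2c were lost without adult heart replicate 2 (adjusted p = 0.0631 and 0.0828), and Katna1 without pup heart replicate 1 or 3 or either adult heart replicate (adjusted p up to 0.148). The medians of this list were −0.19 in hippocampus and −0.04 in heart.

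**Figure D4:**
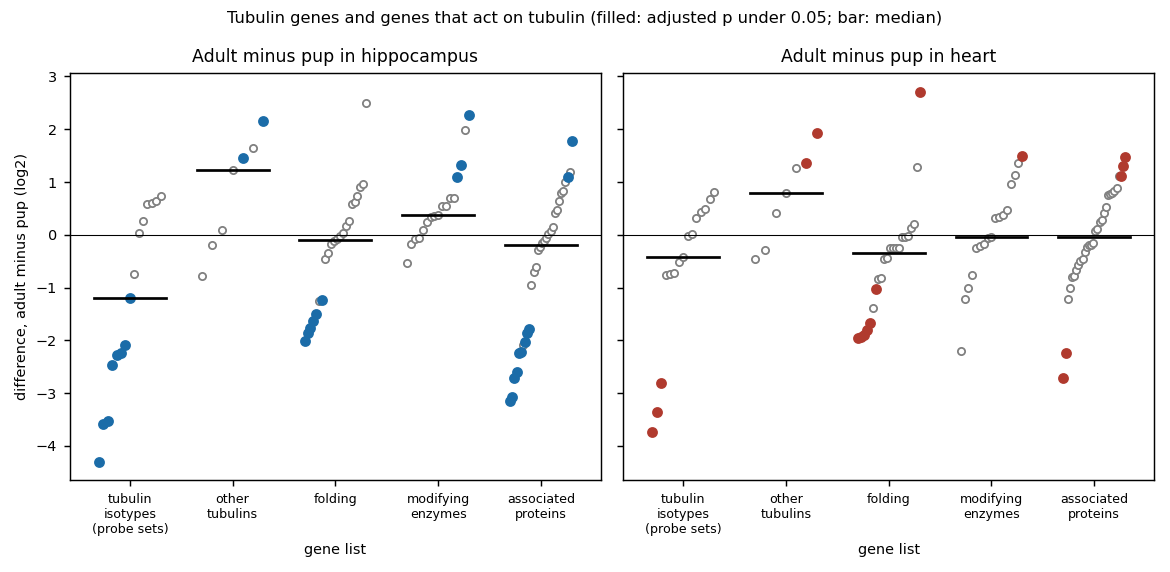
Difference between adult and pup (log2, vertical axis) in hippocampus (left) and heart (right) for the tubulin probe sets and, by brightest probe set, the genes of 4 lists (horizontal axis). Filled points have an adjusted p under 0.05 (limma) and bars are medians, which lie at −1.19 in hippocampus and −0.42 in heart for the tubulin isotypes.

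The genes whose levels over the 10 samples were most like those of 5 isotypes are given by Pearson's r, among 10766 genes with a standard deviation of at least 0.5 over the samples. The samples share tissue, age and RNA source, so these values are descriptions. For Tubb2b they were Prmt2 (0.997), Ip6k2 (0.996) and Ndfip1 (0.995), and for Tubb3 they were Celf4 (0.989), Basp1 (0.989) and Vstm2l (0.988). Prmt2 measured 12.19 and 12.50 in adult hippocampus, against 15.16, 15.30 and 15.38 in pup hippocampus, and 9.23 and 9.58 in adult heart, against 11.99, 11.36 and 12.51 in pup heart, the same order of groups as Tubb2b. The closest genes were less alike for Tubb6 1446353_at, with Tvp23a (0.956), Sqstm1 (0.948) and Cideb (0.943), and for Tuba8 1446771_at, with Ccna1 (0.934), Tnn (0.933) and Hacd3 (0.930). For Tuba4a 1417373_a_at they were Oip5os1 (0.880), Kif20b (0.877) and Spcs1 (0.874).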

How the data were processed

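The authors deposited log2 expression for 45101 probe sets. The study's methods state that the authors used RMA (2.0, a version the submitters' notes also name) with an upper decile summary of the probes, then median centred the arrays and scaled them by a percentile range. The deposited values did not show this centring or scaling, so it was run as an alternative. Beyond naming RMA, the sources used here give no background correction settings and no detection filters, and levels were not compared with background. Probe sets were named through the platform annotation, which gave 34945 probe sets 1 gene and 932 several, while 9160 were unnamed here and 64 were array controls.

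Technical arrays were averaged. Another label field numbers the 4 adult arrays per tissue as separate biological replicates, and the labels and methods differ on whether the bought RNA was mRNA or total RNA. A mean for each of 4 groups was fitted with limma (version 3.58.1, R 4.3.3, 6 residual and 3.73 prior degrees of freedom), and 5 comparisons were made. SE and intervals are those of limma, SD is over biological samples, and precision is limited by how few arrays there were. The fit was tested on simulated data.

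All tubulin probe sets are named. From each pathway list, the called genes with the largest difference in each direction were named, at most 2 per age comparison, and for 5 isotypes the 3 genes most like the brightest probe set. The genes, lists and comparisons were chosen with earlier results of these data known. Promoter sequences and gene order are from RefSeq.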

Additional observations from a re-analysis of the deposited data

Results flagged for a closer look

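The age difference of Tubb2a 1427347_s_at differed between the tissues: hippocampus minus heart gave −3.56 (SE 0.74, adjusted p = 0.0324, limma), with adult minus pup at −3.58 in hippocampus and −0.02 in heart. The other Tubb2a probe set, 1427838_at, gave −1.47 (adjusted p = 0.251, limma). The heart values of 1427347_s_at lay on both sides of the array medians (8.97 to 8.98 in adult heart, 8.77 to 8.85 in pup heart). Whether they lay above background, and so had room to fall, was not tested. The adult heart samples of 1427347_s_at were 9.62 and 7.62, wider apart than any other group of this probe set, and the call was lost without any 1 of 7 of the 10 samples, at adjusted p between 0.0606 and 0.126.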

How the results depend on the processing

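Of the called tubulin differences, those of Tubb2a 1427347_s_at, Tubb2b, Tubb3 and Tubb5 1416256_a_at with age in hippocampus and all 3 in heart stood under every scaling, filter that kept the probe set and left-out sample run, and were lost only under the methods' t-test at 1 or both of its thresholds. That t-test, at an adjusted p of 0.05, called 5 tubulin probe sets with age in hippocampus, 0 in heart, 3 between pup tissues and 0 between adult tissues, against 8, 3, 8 and 6 by limma, and at its false discovery rate of 0.1% it called 0, 0, 0 and 0. Without probe sets that can match several transcripts, 5 were called with age in hippocampus and 0 for the difference between tissues in the age change. Leaving out 1 sample gave 4 to 9 calls with age in hippocampus (4 without adult hippocampus replicate 1, 5 without replicate 2), 3 to 4 in heart, 8 to 9 between pup tissues, 5 to 7 between adult tissues and 0 to 2 for the difference between tissues. With the mean over a gene's probe sets, the Tuba8 difference between adult tissues reversed to −0.92 (adjusted p = 0.0364), against 0.12 for 1446771_at, because the mean includes 1419518_at, while in pups the mean was −0.61 and not called (adjusted p = 0.0845), unlike 1419518_at, and that of Tubb5 fell to 0.70 (adjusted p = 0.204). Tubb4a with age in hippocampus was no longer called after quantile normalization (adjusted p = 0.0551), with median centring and range scaling (0.0507) or without multi-match probe sets (0.0502). With each array as a sample, 8, 3, 9, 8 and 1 tubulin probe sets were called, and with the biological sample as a random block the same counts.

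Replicate numbers are not stated to pair the samples. Deviations from group means of same-numbered pup hippocampus and heart samples correlated at 0.197, −0.084 and 0.006, against −0.156 to 0.16 for other pup pairs. For adults same-numbered pairs gave −0.055 and the others 0.055, values that 2 samples per tissue force to equal size. With so few samples these correlations cannot show whether the samples were paired. With a replicate block, 7, 3, 8, 6 and 1 tubulin probe sets were called, and Tubb4a in hippocampus was lost (−1.13, adjusted p = 0.11). Over all probe sets the block called 4422 with age in hippocampus, against 6709 without it, and 245 for the difference between tissues, against 1600. With each array as a sample these were 10275 and 4543, and 16819 between adult tissues, against 9988, and with the random block 15588 and, for the difference between tissues, 4078. The methods' t-test called 1887, 1, 1938 and 1 in the first 4 comparisons, against 6709, 9011, 6437 and 9988. Leaving out 1 sample gave 1330 to 8763 with age in hippocampus, 3303 to 10260 in heart, 4336 to 8547 between pup tissues, 4564 to 11866 between adult tissues and 209 to 2490 for the difference between tissues, so the shares over all probe sets beside the tubulin counts move with the samples used. The causes were not tested.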
